A study of Rattus norvegicus with 24 samples.

Results

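The genes described here encode the components of 3 vasoactive peptide systems, angiotensin, endothelin and adrenomedullin, measured in the left ventricle of Dahl salt-sensitive rats. Their members were the 9 genes Ace, Agt, Agtr1a, Agtr2, Edn1, Ednra, Ednrb, Ece1 and Adm, each with every probe set that the array's annotation pairs with that symbol alone. Of the 9, 7 had such a probe set, among 4736 genes with one on the array. These 7 had 12 probe sets, of which 8, from 6 genes, were bright enough to be tested. Ednra and Ednrb, the endothelin receptor genes, had none by this annotation and were not analysed here. A further probe set, L36664_s_at, was annotated to both Ace and Ace3, a related gene, and is given beside Ace without being counted for it.

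The strain is inbred and becomes hypertensive on a salty diet. Rats were obtained at 5 weeks of age, and treatment started at 6 weeks of age. High salt rats ate chow with 6% NaCl. Exercised rats ran on a treadmill every day for 6 weeks, reaching a maintenance load of 16 m/min up a 5 degree incline for 90 min a day. Controls were sedentary, of the same age and on normal chow. The table holds 24 columns in 8 groups of 3: high salt, exercise and control at 3 and at 6 weeks, and high salt and control at 15 weeks. The labels say neither from when these weeks run nor that each array is a separate rat, so the p-values refer to the spread among the arrays, which may be partly technical.

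Exercise columns 2 and 3 of week 3 repeat control columns 2 and 3 of that week in every value, so the 24 columns hold 22 distinct arrays. An array labelled as both is in either case not a high salt one, and at 3 weeks the 4 distinct arrays without high salt (exercise 1, control 1 and the 2 arrays under both labels) formed 1 group, called non-salt here. The label of the high salt groups matched the natriuretic peptide gene Nppa, a marker of ventricular load, in every array. Nppa was between 9800.1 and 25453.7 in the 9 high salt arrays, and its highest value in any other array was 6819.3. Nppb, another natriuretic peptide gene, was higher in all high salt arrays than in the other arrays of that week at 3 and 6 weeks only. At 15 weeks Nppb overlapped, at 3313.6, 3723.2 and 1959.2 with high salt and 3953.2, 3095.3 and 4347.5 in controls. Of 11 myocyte marker genes 9 were on the array, none of them at 0 throughout a group, and their summed intensity ranged from 177255 to 305252 over all groups. The GAPDH control probe sets give a 3′ to 5′ ratio, which grows as RNA is degraded or shortened. It was 1.58, 2.48 and 3.99 in 6-week control arrays 1, 2 and 3, of which arrays 2 and 3 stood apart. The 15-week controls had 1.09, 1.52 and 1.58, and the remaining 16 arrays lay between 0.989 and 1.18. The same ratio for actin was 1.98, 3.29 and 2.73 in 6-week controls 1, 2 and 3, all above its highest value elsewhere, 1.68. For hexokinase it was 3.00, 8.35 and 11.1, and reached 3.16 elsewhere, so control 1 stood apart by actin only. As the highest GAPDH ratios lie in the 6-week controls, a model with that ratio cannot well separate it from that group. A call lost in such a model at 6 weeks therefore says little about a single gene. The model fits 1 slope for the ratio over all arrays, so its results at other weeks also draw on the 6-week controls.

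Angiotensinogen, the product of Agt, is cut by renin to angiotensin I, which angiotensin-converting enzyme (Ace) turns into angiotensin II. Angiotensin II constricts vessels and promotes myocyte growth through the type 1 receptor (Agtr1a is its main rat gene), while the type 2 receptor (Agtr2) is mostly fetal and often opposes it. Endothelin 1, from Edn1, is a strong constrictor released from its precursor by endothelin-converting enzyme (Ece1), and adrenomedullin, from Adm, is a dilator peptide that heart and vessels make under load and low oxygen.

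The promoters of 3 members the results turn on are shown: Ace, which passed the test, and Edn1 and Adm, which did not but whose high salt arrays lay above all comparison arrays at one time. Each is the window of 250 bases upstream of the gene's start in RefSeq's annotation of GRCr8, at chr10:91409879-91410128 (plus strand) for Ace, chr17:22666688-22666937 (minus strand) for Edn1 and chr1:174179950-174180199 (plus strand) for Adm. Capitals mark matches, on either strand, to 5 short motifs. The core bound by hypoxia-inducible factor was searched as ACGTG. The AP-1 site was searched as TGANTCA. The motif of the GATA factors was searched as AGATAA, that of Sp1 was searched as GGGCGG, and the TATA box was searched as TATAAA.
Ace: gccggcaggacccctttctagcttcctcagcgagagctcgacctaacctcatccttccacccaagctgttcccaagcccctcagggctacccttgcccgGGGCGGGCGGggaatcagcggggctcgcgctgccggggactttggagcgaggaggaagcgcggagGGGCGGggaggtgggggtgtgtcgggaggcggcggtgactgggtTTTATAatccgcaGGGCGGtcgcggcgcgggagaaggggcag
Edn1: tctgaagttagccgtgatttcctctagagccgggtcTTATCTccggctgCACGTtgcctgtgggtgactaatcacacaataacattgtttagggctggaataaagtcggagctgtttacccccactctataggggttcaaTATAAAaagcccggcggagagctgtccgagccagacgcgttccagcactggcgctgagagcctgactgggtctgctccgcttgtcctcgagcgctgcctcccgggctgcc
Adm: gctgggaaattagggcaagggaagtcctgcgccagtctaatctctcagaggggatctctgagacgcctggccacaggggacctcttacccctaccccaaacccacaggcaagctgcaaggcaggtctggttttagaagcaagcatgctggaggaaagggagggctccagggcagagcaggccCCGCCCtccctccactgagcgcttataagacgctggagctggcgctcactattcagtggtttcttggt
The Ace window holds the Sp1 motif 4 times, the first 2 matches overlapping, and the TATA box once. Edn1 holds the hypoxia-inducible factor core, the GATA factor motif and the TATA box once each, and Adm holds the Sp1 motif once. Of 33469 rat promoters of the same length, 30.5% hold the Sp1 motif, 16.6% the hypoxia-inducible factor core, 12.9% the TATA box, 10.3% the GATA factor motif and 6.34% the AP-1 site, which none of the 3 windows shown holds. A match is only a run of letters, and binding was not measured.

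Ace was the one member that passed the test in any comparison. It was lower with high salt than in controls at 6 weeks, and higher with high salt at 15 weeks than with high salt at 6 weeks. Edn1 had its highest group mean with high salt at 15 weeks and Adm its highest with high salt at 3 weeks, but neither passed. Agt, both Agtr1a probe sets that were tested and both Ece1 probe sets did not pass in any comparison. Differences are log2 fold changes ± SE from limma on log2(intensity + 40), which understates changes of dim probe sets. Calls were made at a Benjamini-Hochberg adjusted p under 0.05 over all 6555 tested.

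**Figure D1:**
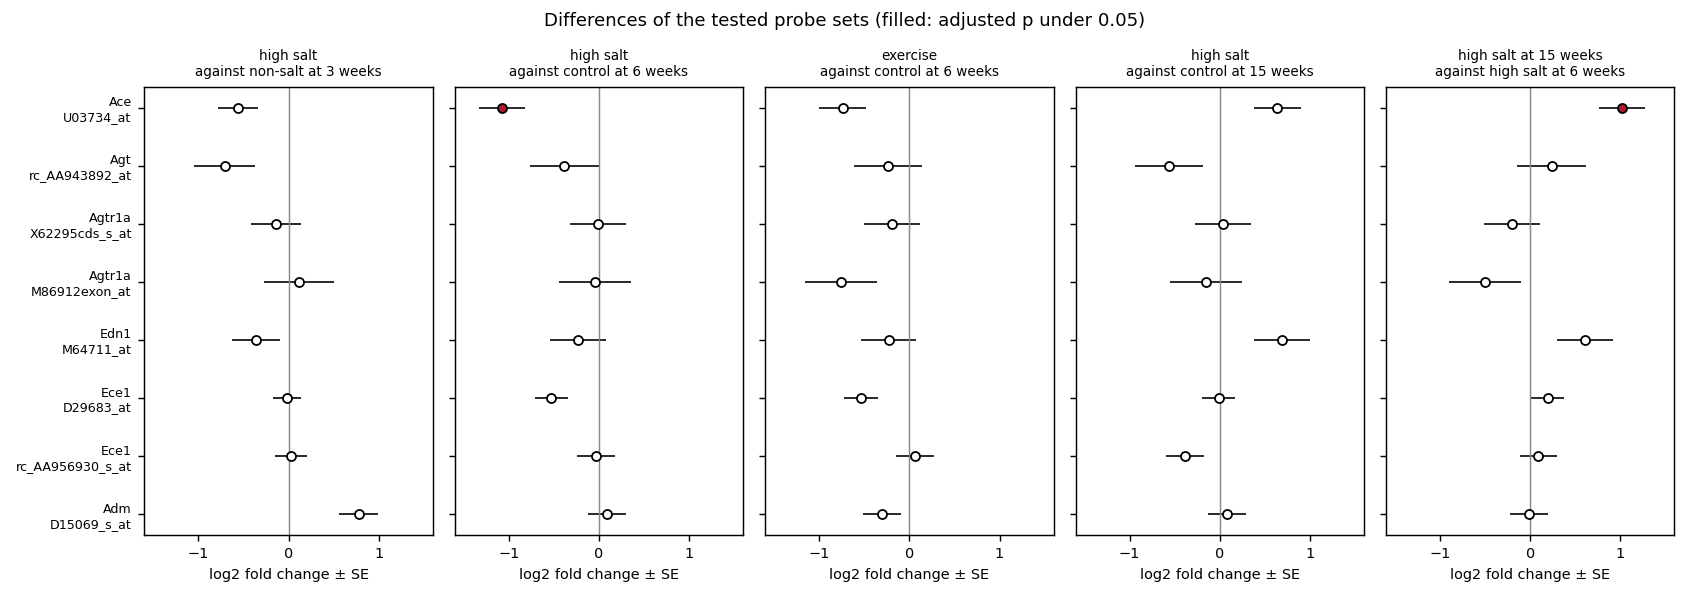
Log2 fold change ± SE (horizontal axis) of the 8 tested probe sets (rows) in 5 comparisons, with the group named first on top of the fold. Filled points passed the test: Ace at -1.07 for high salt against control at 6 weeks and at 1.02 for high salt at 15 weeks against high salt at 6 weeks; no other point is filled.

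The counts are set beside the same counts over the whole array. For high salt against control at 15 weeks limma called 0 of 8 member probe sets, against 7.2% of all tested, with 2 at an unadjusted p under 0.05 (19.6% of all). The arrays of the groups did not overlap for 3 of the 8, Ace and Edn1 above and an Ece1 probe set below, against 20.9% of all. For high salt against control at 6 weeks 1 of 8 was called, against 14.4% of all (7.73% lower), 2 had an unadjusted p under 0.05 (29.3%) and 2 did not overlap, against 30.7%. The median of the 8 was -0.14 and that of all tested probe sets -0.15.

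For exercise against control at 6 weeks limma called 0 of 8, against 7.83% of all, with 2 at an unadjusted p under 0.05 (24% of all) and 2 not overlapping (28.5%). For high salt against exercise at 6 weeks it called 0, against 0.0153%, with 0 at an unadjusted p under 0.05 (7.05%) and 2 not overlapping (13.4%). For high salt against non-salt at 3 weeks it called 0, against 0.153%, with 3 at an unadjusted p under 0.05 (8.05%) and 4 not overlapping (14.8%). Those 4 were Ace, Agt and Edn1 below and Adm above.

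Within the high salt groups, limma called 0 of 8 for 6 against 3 weeks, where 0.0763% of all were called; 0 had an unadjusted p under 0.05 (4.62%) and 0 did not overlap (11.8%). For 15 against 6 weeks it called 1, against 3.19% of all (1.65% higher), 1 had an unadjusted p under 0.05 (12.9%) and 2 did not overlap (15.6%). Control at 15 weeks against non-salt at 3 weeks gave 0 called by limma, against 0.0153%, with 2 at an unadjusted p under 0.05 (7.81%), and 2, both probe sets of Ece1, not overlapping (9.05%). The difference between the salt effects of 15 and 6 weeks was called for 1 of 8, against 1.6% of all (0.793% higher), with 2 at an unadjusted p under 0.05 (15.9%). That between 15 and 3 weeks was called by limma for 0, against 2.4%, with 3 at an unadjusted p under 0.05 (12.5%). Comparisons that share a group of arrays are not independent of each other.

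**Figure D2:**
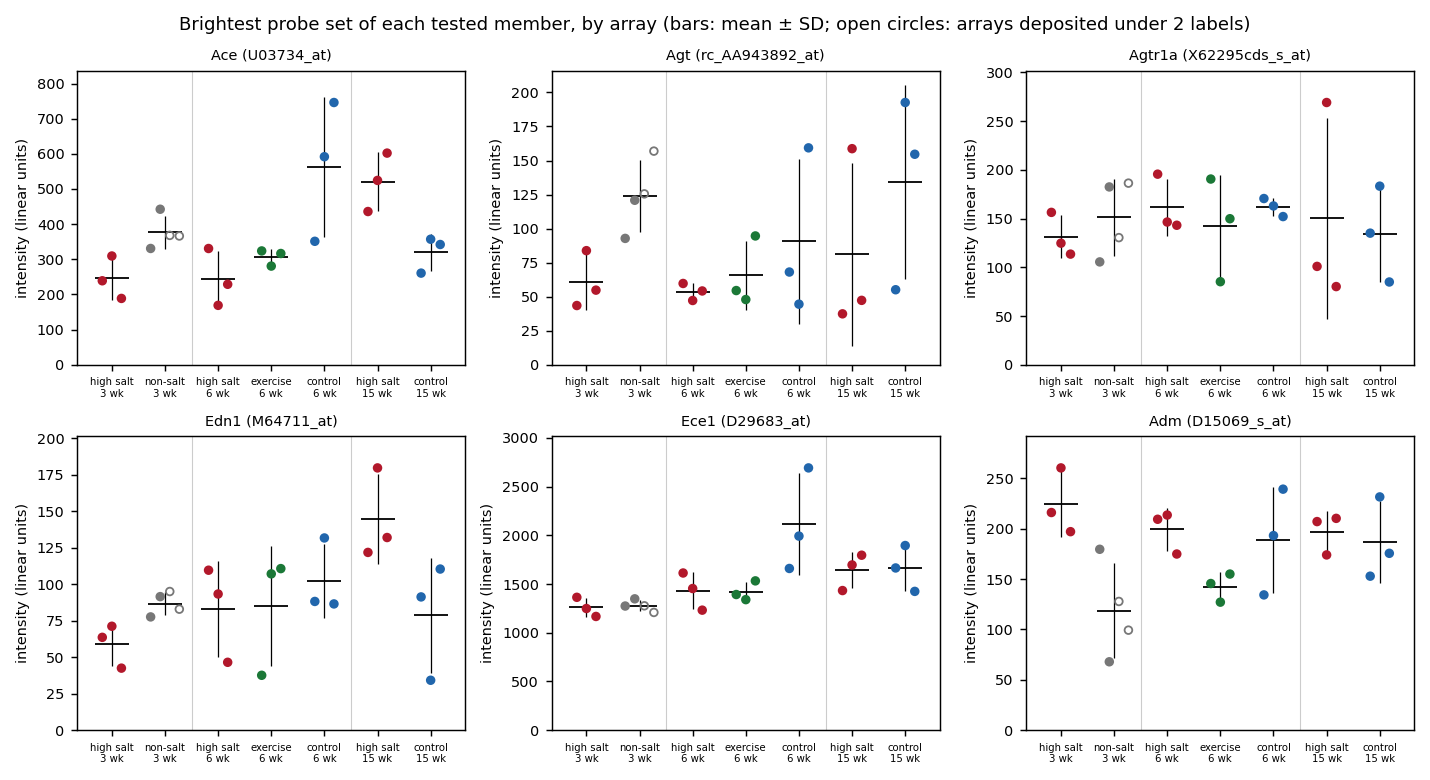
Deposited intensity (linear, vertical axis from 0) of the brightest probe set of each of the 6 tested members on the 22 distinct arrays, by group; points are arrays, bars the mean ± SD, and open circles the 2 arrays deposited under both labels. Ace runs from 435.9 to 602.1 with high salt at 15 weeks, above all 3 controls of that week, and from 351.2 to 746 in the 6-week controls.

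Ace, on chromosome 10, encodes the enzyme that makes angiotensin II and breaks down bradykinin, and endothelium is its best known source. Its probe set U03734_at gave 330.7, 169 and 228.9 with high salt at 6 weeks, against 351.2, 591.8 and 746 in controls of that week. Every salt array was below every control, with the nearest pair 330.7 and 351.2. The means were 242.9 ± 81.7 with high salt and 563 ± 199 in controls (SD, n = 3 each), a difference of -1.07 ± 0.26 (adjusted p = 0.00854).

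The 3 controls of that week rank the same way in Ace as in their GAPDH ratio: 351.2 at 1.58, 591.8 at 2.48 and 746 at 3.99. Outside these controls and high salt at 15 weeks, no array exceeded 442.4. With that ratio in the model the 6-week difference was -0.16 (adjusted p = 0.938). Such a model cannot well separate the ratio from these controls. Against the 15-week controls and the 3-week non-salt arrays in place of the 6-week controls the difference was -0.48 (adjusted p = 0.330). The call was also lost without control 3 (-0.85, adjusted p = 0.0615), without salt array 2 (-0.88, adjusted p = 0.0545) and in a fit of the 2 groups alone (adjusted p = 0.0666). It was kept in 15 of 20 alternatives.

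**Figure D3:**
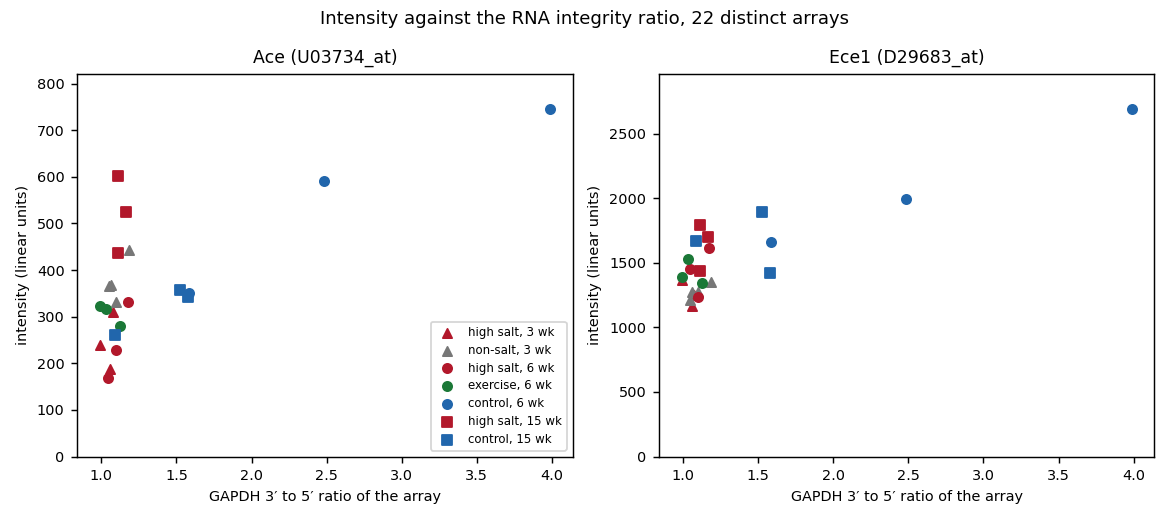
Intensity of Ace (left, U03734_at) and Ece1 (right, D29683_at) on a linear vertical axis from 0 against the GAPDH 3′ to 5′ ratio of each of the 22 distinct arrays (horizontal axis); colour gives the treatment and shape the week. The 2 arrays with ratios of 2.48 and 3.99, both 6-week controls, have the highest intensity of Ece1 (1992.8 and 2692.9) and lie at 591.8 and 746 for Ace, while the high salt arrays of 15 weeks reach 602.1 at ratios near 1.1.

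At 15 weeks Ace gave 435.9, 524.4 and 602.1 with high salt, against 260.7, 357.1 and 342.1 in controls. All 3 salt arrays lay above all 3 controls, with no overlap. The means were 520.8 ± 83.2 with high salt and 320 ± 51.9 in controls (SD, n = 3 each), a difference of 0.64 ± 0.26 that did not pass (adjusted p = 0.158). Adding the GAPDH ratio to the model gave 0.86, which did pass (adjusted p = 0.0238), the one setting of 20 in which it did.

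High salt at 15 weeks set against high salt at 6 weeks uses no control mean, and all 6 GAPDH ratios there lay between 1.04 and 1.17. Its SE comes from the fit over 20 arrays, controls included. Age and time on the diet cannot be told apart in this contrast. Here Ace rose by 1.02 ± 0.26 (adjusted p = 0.0321), again with no overlap: the lowest 15-week array was at 435.9 and the highest 6-week array at 330.7. The call was kept in 15 of 20 alternatives. It was lost without salt array 2 or 3 of 15 weeks (adjusted p = 0.0779 and 0.116), without salt array 2 or 3 of 6 weeks (adjusted p = 0.158 and 0.0950) and in a fit of these groups alone (adjusted p = 0.103), while the difference stayed between 0.77 and 1.23.

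At 3 weeks Ace gave 238.9, 309.4 and 188.7 with high salt, against 442.4, 330.8, 368 and 366.3 in the non-salt arrays, of which 442.4 is the exercise array. The groups did not overlap, and the difference of -0.56 ± 0.23 did not pass (adjusted p = 0.507). With exercise at 6 weeks Ace gave 323.8, 280.7 and 316.5, below all 3 controls of that week, a difference of -0.74 ± 0.26 that did not pass (adjusted p = 0.0796) and that turned to 0.23 once the GAPDH ratio was in the model. High salt and exercise at 6 weeks overlapped, differing by -0.33 ± 0.26 (adjusted p = 0.893).

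The salt effect on Ace was therefore tested for a difference between weeks. It was 1.71 ± 0.36 higher at 15 than at 6 weeks (adjusted p = 0.0173) and 1.20 ± 0.33 higher at 15 than at 3 weeks, which did not pass (adjusted p = 0.0557). The first of these uses the 6-week controls, and a model with the GAPDH ratio gave 1.02 (adjusted p = 0.274). The second does not use their mean. The model with the ratio gave 1.37 for it, which passed (adjusted p = 0.00502), but the slope of that model was fitted over those controls too. A fit without the 6-week controls also called it (1.20, adjusted p = 0.0265), as did 7 of 27 alternatives in all.

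In the order of its group means Ace ran from 563 ± 199 in controls at 6 weeks through 520.8 ± 83.2 with high salt at 15 weeks and 376.9 ± 46.9 in non-salt arrays at 3 weeks. Below these came 320 ± 51.9 in controls at 15 weeks, 307 ± 23.1 with exercise at 6 weeks, 245.7 ± 60.6 with high salt at 3 weeks and 242.9 ± 81.7 with high salt at 6 weeks (n = 4 for non-salt, 3 for the others). The arrays of every pair of neighbours in this order overlapped, so only groups farther apart were separate.

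L36664_s_at, which may read Ace and Ace3 together, had smaller differences of the same sign for high salt at each week. At 3 weeks it gave 126.9, 131.7 and 141.5 with high salt against 173.2, 156.6, 144.3 and 188.7 in non-salt arrays, below without overlap as U03734_at was, at -0.24 ± 0.19 (adjusted p = 0.813). It gave 152.6, 184.4 and 138 with high salt at 6 weeks against 118.6, 216.5 and 195.3 in controls, and 116, 195.9 and 172.5 with high salt at 15 weeks against 116, 127 and 170.3 in controls. The groups of 6 and of 15 weeks overlapped, and the differences were -0.11 ± 0.22 and 0.17 ± 0.22 (adjusted p = 0.803 and 0.764). Over 20 arrays its log2 intensity had a Pearson r of 0.45 with U03734_at, and 0.25 over the 17 without the 6-week controls. High salt at 15 against 6 weeks, called for U03734_at, was 0.0079 ± 0.22 here (adjusted p = 0.992), so the Ace calls rest on 1 probe set.

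Some cell type markers were called in the comparisons given for Ace. For high salt against control at 6 weeks, 2 of 9 endothelial and 3 of 7 smooth muscle and pericyte markers were lower. Also called were 1 smooth muscle marker and 1 of 9 myocyte markers, both higher, and 1 of 6 mast cell markers, lower. Of 5 macrophage and leukocyte markers 1 was higher and 1 lower. Of all tested probe sets 14.4% were called there (7.73% lower). For exercise against control at 6 weeks, 2 of 9 endothelial and 3 of 7 smooth muscle and pericyte markers were lower as well. There 2 of 9 myocyte and 1 of 5 macrophage and leukocyte markers were higher, and 7.83% of all tested probe sets were called. Summed endothelial intensity was 2069.1 to 3234.4 with high salt, 2286.7 to 2900 with exercise and 2933.4 to 4565.1 in controls, and summed smooth muscle intensity was 4715.8 to 6604.3, 3699.1 to 6983.8 and 6667.3 to 15109.8 in the same order. At 15 weeks none of the 9 endothelial markers was called, with sums of 2073.8 to 3055.7 under high salt and 2940.2 to 3951.2 in controls, which overlap. None of the 7 smooth muscle and pericyte markers was called, but their sums did not overlap (3414 to 4374.2 with high salt, 5310.8 to 7984.7 in controls). Fibroblast markers were lower in 4 of 10 (13757.2 to 25891.5 with high salt, 28815.5 to 39492.9 in controls). Of 4 red blood cell transcripts 3 were higher (52814.3 to 71701 and 30772 to 44488.7), and 1 of 5 macrophage and leukocyte markers was lower. Of all tested probe sets 7.2% were called at 15 weeks. For high salt at 15 against 6 weeks, none of the endothelial and smooth muscle markers was called. The smooth muscle sums were nevertheless lower at 15 weeks without overlap (3414 to 4374.2, against 4715.8 to 6604.3 at 6 weeks). Here 4 of 10 fibroblast markers were lower (sums of 13757.2 to 25891.5 at 15 weeks and 30174.6 to 41189.9 at 6 weeks). In addition, 4 of 4 red blood cell transcripts were higher (52814.3 to 71701 and 22079.3 to 28449.7). In that comparison 1 of 5 macrophage and leukocyte markers was also lower, and 3.19% of all tested probe sets were called. No marker was at 0 throughout a group. In whole tissue, fewer cells of a type and less RNA per cell cannot be told apart, and the part of these shifts in the Ace values was not tested. The 6-week marker comparison also rests on controls with GAPDH ratios of 1.58, 2.48 and 3.99, and the part of RNA integrity in the marker shifts was not tested.

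Agt encodes angiotensinogen, the precursor of all angiotensins, made mainly in liver and at low levels in heart. Its probe set rc_AA943892_at gave 43.5, 83.8 and 54.8 with high salt at 3 weeks, against 120.8, 92.8, 125.5 and 156.9 in the non-salt arrays. No array of the one group reached the other, but the difference of -0.71 ± 0.33 did not pass (adjusted p = 0.610). At 6 weeks it gave 59.7, 47.2 and 54.2 with high salt, 54.5, 47.9 and 94.6 with exercise, and 68.1, 44.5 and 159.3 in controls.

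At 15 weeks Agt varied widely within each group. It was at 37.4, 158.7 and 47.3 with high salt, against 55.1, 192.6 and 154.6 in controls. Array 2 was the highest of each group. High salt array 2 also had the highest median intensity of the 22 arrays (156, against 119.7 and 116.1 in its group), and was the highest of its group for Edn1 (179.7). The groups overlapped and differed by -0.56 ± 0.38 (adjusted p = 0.468), though with arrays weighted by their quality the difference was -1.07 and passed (adjusted p = 0.0244), the one setting of 19 in which it did. The group means ran from 134.1 ± 71 in 15-week controls to 53.7 ± 6.26 with high salt at 6 weeks (SD, n = 3 each), with every pair of neighbours in the order overlapping.

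The angiotensin receptor genes were dim. Of the 4 probe sets of Agtr1a, the type 1 receptor, 2 were tested, and neither of the 2 of Agtr2, the type 2 receptor, was. X62295cds_s_at, the brightest for Agtr1a, gave 195.5, 146.4 and 143.1 with high salt at 6 weeks, 190.5, 85.2 and 149.8 with exercise, and 170.5, 162.9 and 152 in controls. All 3 groups overlapped, with -0.01 ± 0.31 for high salt and -0.19 ± 0.31 for exercise against control (adjusted p = 0.988 and 0.752).

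At 15 weeks X62295cds_s_at was at 100.9, 269 and 80.2 with high salt and at 135, 183.2 and 84.9 in controls, a difference of 0.03 ± 0.31 (adjusted p = 0.976). Array 2 was again the highest in both groups. Its 7 group means spanned only 131.5 ± 22.2 (high salt at 3 weeks, n = 3) to 161.8 ± 9.3 (control at 6 weeks, n = 3), a range narrower than the spread within the 15-week groups.

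M86912exon_at, the other tested probe set of Agtr1a, had its lowest group mean with exercise at 6 weeks, at 43.9, 41.3 and 28.9, though high salt arrays 1 and 3 of 15 weeks were lower still (27.5 and 23.9). With high salt at 6 weeks it gave 156.3, 44.5 and 85, and in controls 106, 161.7 and 37.9. The exercise arrays lay below all 3 high salt arrays, though the gap between 43.9 and 44.5 is slight, and overlapped the controls. High salt against exercise was 0.71 ± 0.40 (adjusted p = 0.757) and exercise against control -0.76 ± 0.40 (adjusted p = 0.255), the difference from control being called only when arrays were weighted (-1.22, adjusted p = 0.00613). Values near 40 are close to the filter of 41.9.

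The remaining receptor probe sets were left untested as too dim. M86912exon_g_at ranged from 9.6 to 87.4 and M74054_s_at from 4.5 to 33.5 over the 22 arrays, both for Agtr1a. For Agtr2, U01908cds_s_at ranged from 7 to 31.2 and D16840_s_at from 2.4 to 11.8. In each Agtr2 probe set all neighbouring group means overlapped, and with no detection calls used here such values show no level that can be compared.

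**Figure D4:**
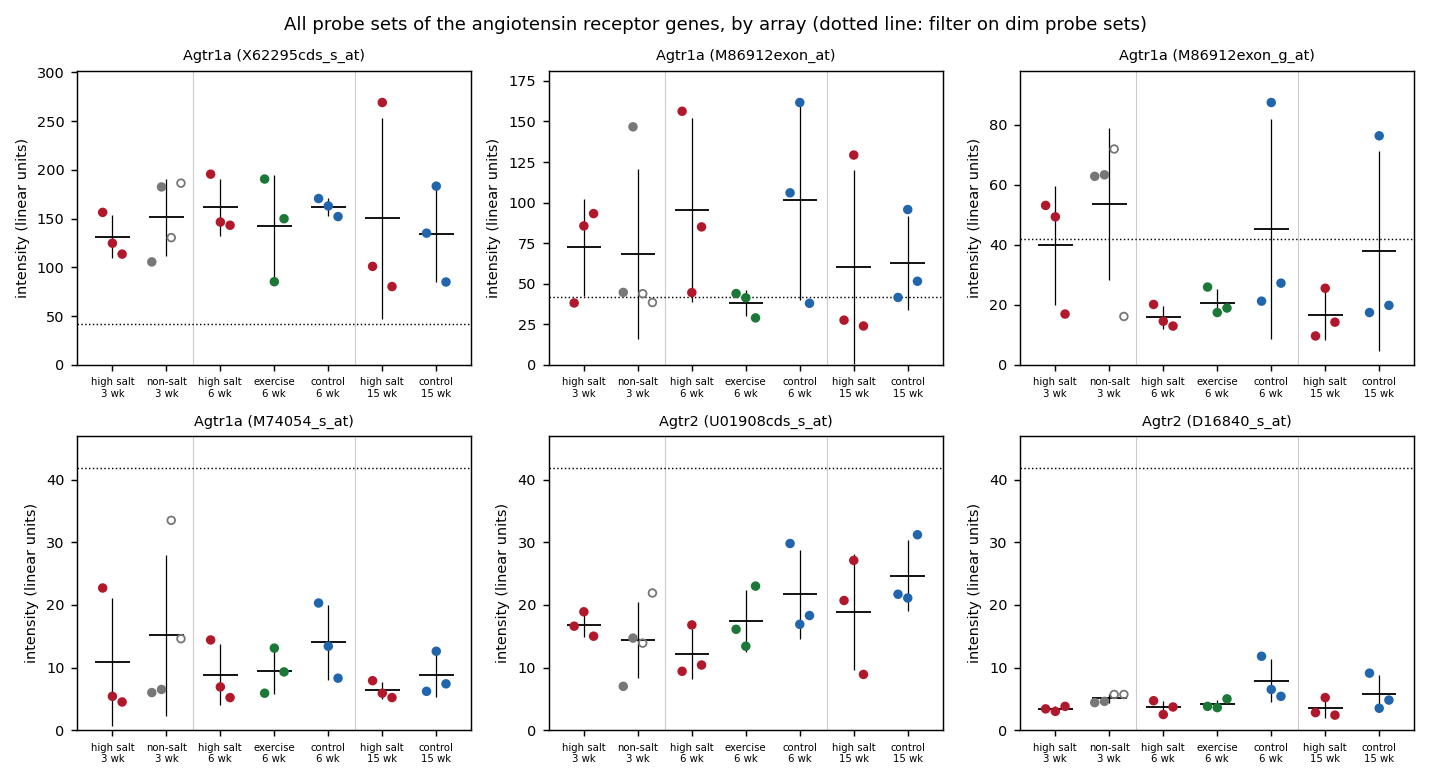
Deposited intensity (linear, vertical axis from 0) of all 6 probe sets of Agtr1a and Agtr2 on the 22 distinct arrays, by group; points are arrays, bars the mean ± SD, open circles the 2 arrays deposited under both labels, and the dotted line the filter at 41.9. Only X62295cds_s_at lies above the line on every array, and both Agtr2 probe sets lie below it on every array, with a highest value of 31.2.

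Edn1, on chromosome 17, encodes preproendothelin 1, from which the constrictor peptide is cut. M64711_at gave 121.8, 179.7 and 132 with high salt at 15 weeks, against 91.3, 34.2 and 110.4 in controls. Every salt array lay above every control, the nearest pair being 121.8 and 110.4. The means were 144.5 ± 30.9 with high salt and 78.6 ± 39.6 in controls (SD, n = 3 each), and the difference of 0.69 ± 0.31 did not pass (adjusted p = 0.220). It kept its sign in 19 alternatives, between 0.36 and 0.91, and was called in none.

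High salt at 6 weeks gave 109.6, 93.3 and 46.5 for Edn1, and all 3 arrays of 15 weeks lay above these, at 0.61 ± 0.31 (adjusted p = 0.432). At 3 weeks it was at 63.6, 71.2 and 42.5 with high salt, against 91.5, 77.6, 95 and 82.9 in the non-salt arrays. Here the salt arrays lay below without overlap, at -0.36 ± 0.27 (adjusted p = 0.799). The salt effect was 1.05 ± 0.39 higher at 15 than at 3 weeks (adjusted p = 0.204) and 0.92 ± 0.44 higher at 15 than at 6 weeks (adjusted p = 0.315), neither of which passed.

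At 6 weeks Edn1 gave 37.6, 107.1 and 110.7 with exercise and 88.2, 131.7 and 86.5 in controls, overlapping each other and high salt. Group means fell in the order high salt at 15 weeks (144.5 ± 30.9), control at 6 weeks (102.1 ± 25.6), non-salt at 3 weeks (86.8 ± 7.94, n = 4), exercise at 6 weeks (85.1 ± 41.2), high salt at 6 weeks (83.1 ± 32.8), control at 15 weeks (78.6 ± 39.6) and high salt at 3 weeks (59.1 ± 14.9, n = 3 for all but non-salt). Neighbours in this order overlapped throughout.

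Ece1, the metalloprotease that cuts big endothelin to its active form, had 2 tested probe sets that differed. D29683_at gave 1613.8, 1454.4 and 1232.3 with high salt at 6 weeks, 1392.8, 1340.2 and 1532.9 with exercise, and 1660.3, 1992.8 and 2692.9 in controls. All salt and all exercise arrays lay below all controls, at -0.53 ± 0.19 each (adjusted p = 0.0611 for high salt and 0.0795 for exercise). Like Ace, the controls ranked as their GAPDH ratios did, and in a model with the ratio the differences were -0.026 and -0.032. They were called in 6 of 20 alternatives for high salt and 4 of 20 for exercise.

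The other Ece1 probe set, rc_AA956930_s_at, was at 396, 506.5 and 281.5 with high salt at 6 weeks, 371.2, 398.1 and 482.9 with exercise and 436.3, 315.3 and 449.1 in controls. These groups overlapped, at -0.04 ± 0.21 for high salt (adjusted p = 0.931) and 0.06 ± 0.21 for exercise (adjusted p = 0.892). Over 20 arrays the probe sets had a Pearson r of 0.19, and 0.50 over the 17 without the 6-week controls.

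At 15 weeks the Ece1 probe sets differed again. D29683_at was at 1433.5, 1696.6 and 1796.5 with high salt and 1665.5, 1895.8 and 1425 in controls, overlapping, at -0.01 ± 0.19 (adjusted p = 0.983). rc_AA956930_s_at was at 401.4, 458.8 and 381.7 with high salt, below the 612.7, 571.4 and 478.1 of the controls, at -0.39 ± 0.21 (adjusted p = 0.332). Against the non-salt arrays of 3 weeks the 15-week controls were above without overlap in both probe sets, at 0.36 ± 0.16 and 0.34 ± 0.18 (adjusted p = 0.583 and 0.676).

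Adm, on chromosome 1, encodes adrenomedullin. D15069_s_at gave 216.1, 260.4 and 197.1 with high salt at 3 weeks, against 67.9, 179.6, 127.8 and 99.3 in the non-salt arrays, of which 67.9 is the exercise array and 179.6 the control. All 3 salt arrays lay above all 4 others. The means were 224.5 ± 32.5 with high salt (n = 3) and 118.6 ± 47.4 in non-salt arrays (n = 4), and the difference of 0.78 ± 0.22 did not pass (adjusted p = 0.204). It ranged from 0.48 to 0.95 over 21 alternatives and was called in 1 of them, with arrays weighted (0.80, adjusted p = 0.0169).

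At 6 weeks Adm gave 209.4, 213.6 and 174.9 with high salt, 145.6, 127.1 and 155 with exercise, and 134.3, 193.2 and 239.3 in controls. The salt arrays lay above all exercise arrays, at 0.39 ± 0.21 (adjusted p = 0.751), while the controls overlapped both, at 0.09 ± 0.21 for high salt and -0.30 ± 0.21 for exercise (adjusted p = 0.831 and 0.408). The controls again ranked as their GAPDH ratios did.

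At 15 weeks Adm was at 207.1, 174 and 210.3 with high salt and 152.9, 231.6 and 175.6 in controls, overlapping, at 0.08 ± 0.21 (adjusted p = 0.915). The 3 high salt groups held the 3 highest means, 224.5 ± 32.5 at 3 weeks, 199.3 ± 21.2 at 6 weeks and 197.1 ± 20.1 at 15 weeks (SD, n = 3 each). Below them came 188.9 ± 52.6 in 6-week controls, 186.7 ± 40.5 in 15-week controls and 142.6 ± 14.2 with exercise at 6 weeks (n = 3 each), with the non-salt arrays of 3 weeks last. Neighbours overlapped in every case. The salt effect at 15 weeks minus that at 3 weeks was -0.70 ± 0.32 (adjusted p = 0.356), and the 15-week controls were 0.55 ± 0.22 above the non-salt arrays of 3 weeks (adjusted p = 0.485).

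For each tested member the 2 genes with the most similar log2 intensities over the 20 arrays were found. For Ace these were Fuca1, a lysosomal fucosidase (Pearson r = 0.86), and Bnip3l, a mitophagy receptor (0.82), and both remained similar over the 17 arrays without the 6-week controls (0.81 and 0.77). For Edn1 they were Atp6v1f, a subunit of the vacuolar proton pump (0.80), and Cd63, a tetraspanin of late endosomes (0.74), at 0.84 and 0.81 without those controls. For Ece1 they were LOC102549726 (0.85) and the glycolytic enzyme gene Eno1 (0.83), which dropped to 0.73 and 0.75. For Adm the values were lower, at 0.69 for Lox, which encodes the collagen cross-linking enzyme lysyl oxidase, and 0.62 for Rassf2. Agt had Isl2 and Gabra3 (0.80 each), and Agtr1a had Igfals (0.85) and Alb (0.77), the albumin gene. These are the highest values among all tested probe sets, over arrays that share groups and integrity, and are given as a description.

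Calls in other genes of the same pathways were spread over several lists. Each gene was taken at its brightest probe set. Of 9 tested genes of angiotensin and aldosterone handling, 1 was higher and 1 lower with high salt than in controls at 15 weeks. Of all tested probe sets 7.2% were called there (medians -0.06 for the 9 and -0.04 over all). Hsd11b1, whose enzyme regenerates active glucocorticoid, gave 1880.2, 1010.4 and 3271.8 with high salt against 573.3, 673.8 and 803.2 in controls. The groups did not overlap, and the rise of 1.39 ± 0.30 (adjusted p = 0.00679) was called in all 20 alternatives. It was also 1.69 ± 0.30 above high salt at 6 weeks (adjusted p = 0.00212), where it was at 477.3, 685.2 and 491.7.

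Enpep encodes aminopeptidase A, which turns angiotensin II into angiotensin III. It was at 79.3, 29.9 and 30.5 with high salt at 15 weeks, against 92.4, 153.9 and 146.3 in controls, all salt arrays being lower. The change was -1.01 ± 0.28 (adjusted p = 0.0326), a call kept in 10 of 19 alternatives and lost, among others, when the GAPDH ratio was modelled (-0.85, adjusted p = 0.0805). At 6 weeks 1 of the 9 was lower with high salt than in controls and none higher, against 7.73% of all called lower (median -0.01). This was Cma1, mast cell chymase, at 126.2, 175 and 187.2 with high salt against 264.3, 291.1 and 371.9 in controls. The groups did not overlap, and the change was -0.78 ± 0.23 (adjusted p = 0.0267), or -0.32 with the ratio modelled (adjusted p = 0.849). Summed intensity of 8 mast cell markers was 812.3 to 1355.3 with high salt and 1042.9 to 1612.1 in controls.

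Of 3 tested endothelin genes beyond the members limma called 0 in either salt comparison, with medians of 0.01 at 15 and 0.54 at 6 weeks. Of all tested probe sets 7.2% were called at 15 weeks and 14.4% at 6 weeks. Of 6 genes of the adrenomedullin and calcitonin family 0 were called at 15 weeks. At 6 weeks 1 was higher with high salt than in controls, Pam, which amidates peptides such as adrenomedullin to their active form (0.63 ± 0.19, adjusted p = 0.0278), and 1 lower, Crcp, a receptor component (-0.69 ± 0.21, adjusted p = 0.0357). Crcp was -0.50 with the GAPDH ratio modelled (adjusted p = 0.727), and its call was kept in 11 of 20 alternatives. Pam was 0.086 with that ratio modelled (adjusted p = 0.956). Of its 4 other tested probe sets, E03428cds_s_at was higher by 2.06 ± 0.29 without overlap (adjusted p = 2.5e-04) and 3 did not pass.

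At 6 weeks 7.73% of all tested probe sets were called lower with high salt than in controls. Of 8 kinin and nitric oxide genes, 4 were lower and none higher (median -0.57, against -0.15 over all). They were Nos3, the endothelial nitric oxide synthase (-1.29 ± 0.29), Gucy1a1 and Gucy1b1 (-0.82 ± 0.19 and -0.91 ± 0.25), and Klk1, tissue kallikrein (-1.07 ± 0.35). Their adjusted p were 0.00640, 0.00713, 0.01995 and 0.0483 in that order. Gucy1a1 and Gucy1b1 encode the subunits of soluble guanylate cyclase, the receptor of nitric oxide. All 4 calls were lost with the ratio modelled, where Gucy1a1 was -0.56, Gucy1b1 -0.18 and Klk1 -1.66. They were also lost against the 15-week controls and 3-week non-salt arrays. The model with the ratio cannot well separate it from the 6-week controls, whatever the gene. The Klk1 call was kept in 8 of 19 alternatives, and its other tested probe set, M19647_i_at, was at 0.51 ± 0.46 (adjusted p = 0.4998). Nos3 was at 392.9, 791.9 and 1294 in those controls, again in the order of their GAPDH ratios, and with the ratio modelled it was 0.094 for high salt and 0.44 for exercise (-1.02 ± 0.29 without it), both of opposite sign. None of its 5 other tested probe sets passed. Gucy1a1 was also lower with exercise at 6 weeks (-0.82 ± 0.19, adjusted p = 0.0109), a call kept in 14 of 20 alternatives and lost with the ratio modelled (-0.55, adjusted p = 0.785). At 15 weeks it was the 1 of 8 called, against 7.2% of all. It was at 158.7, 162.6 and 175.3 under high salt against 336.7, 385.8 and 334.5 in controls. These arrays were far apart, and the change of -0.93 ± 0.19 (adjusted p = 0.00426) was called in all 20 alternatives. Nos3 gave 274.3, 275.1 and 226.6 with high salt at 15 weeks, below the 377.9, 549.3 and 542.4 of controls, but did not pass. Gucy1b1 was likewise lower without overlap (115.4, 217.8 and 209.6 against 307.5, 267.1 and 369.6) and did not pass, while Klk1 overlapped. Of all tested probe sets 20.9% did not overlap in that comparison.

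The type 1 angiotensin and endothelin receptors act through Gq proteins. Of 15 tested signalling genes downstream of them, 1 was lower at 15 weeks and none higher, against 7.2% of all called. Rgs4, which shortens Gq signals, was at 12.1, 30.2 and 17.2 with high salt, against 178.4, 152.9 and 102 in controls and 115.6, 127.7 and 169.9 with high salt at 6 weeks. The 15-week salt arrays were below all of these, at -1.61 ± 0.24 against control (adjusted p = 3.3e-04), called in all 19 alternatives. These salt values lie under the filter of 41.9, so the size of the fold depends on the pseudocount, from -0.75 with a larger one to -2.38 with a smaller one. At 6 weeks limma called 14.4% of all for high salt and 7.83% for exercise. In both, 1 of the 15 was higher than in controls, Gna12, which encodes the alpha subunit of another G protein, G12. It differed by 1.09 ± 0.24 with high salt (adjusted p = 0.00535) and by 0.84 ± 0.24 with exercise (adjusted p = 0.0379). Its other probe set, S50461_s_at, was called in both too (1.43 ± 0.30 and 0.99 ± 0.30). With the ratio modelled the brighter probe set, D85760_at, was 0.82 and 0.55 and passed in neither (adjusted p = 0.556 and 0.855). Of 7 genes known to respond to angiotensin or endothelin, 1 was lower at 15 weeks, against 7.2% of all called. This was Tgfb1, a profibrotic growth factor, at 247.2, 150.8 and 322.7 with high salt against 475.5, 673.1 and 590.5 in controls (-1.18 ± 0.24, adjusted p = 0.00364).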

How the data were processed

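Total RNA of the left ventricle was hybridised to an Affymetrix rat array, and the authors deposited 1 linear intensity per probe set and array (8799 probe sets, 59 of them controls that were left out here). How they were summarised, background-corrected and scaled, and with which software, is not stated in the labels used here. After trimming 2% at each end, every column of the deposited intensity values had a mean between 500.767 and 501.021, so they were taken as already scaled. Precision is limited by the number of arrays.

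Groups came from the sample titles; array numbers were not used to pair arrays. Intensities were transformed as log2(value + 40), the pseudocount being the 25th percentile rounded to 1 digit. A filter at the 25th percentile of mean intensity (41.9) left 6555 probe sets to test. A mean per group was fitted over 20 arrays (12 residual degrees of freedom) in limma 3.58.1 under R 4.3.3, with empirical Bayes moderation and an intensity trend; comparisons with non-salt arrays used 22 arrays (15 residual degrees of freedom). The columns identical under 2 labels are absent from the first fit. Adjusted p-values are limma's, by Benjamini-Hochberg over all 6555. The code was tested on simulated data.

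The annotation gave 1 symbol for 7018 probe sets, several for 308 and none for 1473. It names no genome build. Probe sets ending in _s_at or _f_at may also read similar transcripts. Promoters came from RefSeq's tables on GRCr8, which held 8 of the 9 members. The members, lists and tests were chosen with earlier results of these data known. The genes named are all members, the 2 genes most similar to each, and up to 4 genes per list with the smallest p in the comparison described. Alternatives changed the pseudocount, filter, normalization, trend, weights, covariate, groups fitted, reading of identical columns and replicates.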

Additional observations from a re-analysis of the deposited data

Results flagged for a closer look

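The salt effect on Ace differed between 15 and 6 weeks by 1.71 ± 0.36 on the log2 scale (adjusted p = 0.0173), tested as an interaction in limma. High salt was above control at 15 weeks (0.64 ± 0.26, which did not pass, adjusted p = 0.158) and below it at 6 weeks (-1.07 ± 0.26, which passed). The 6-week controls in this difference had GAPDH ratios of 1.58, 2.48 and 3.99, and with the ratio as a covariate the difference was 1.02 (adjusted p = 0.274). Without 6-week control 1, 2 or 3 it was 2.00, 1.65 and 1.49 in turn (adjusted p = 0.00214, 0.0564 and 0.0460). The call was also lost without 15-week control 1 (adjusted p = 0.0531), without 6-week salt array 2 (0.0526) and with only the compared groups (0.0638). It was kept in 20 of 25 alternatives. L36664_s_at gave 0.28 ± 0.32 for the same difference and did not pass (adjusted p = 0.726).

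In the group of 4 non-salt arrays at 3 weeks, Agtr1a stood out in 1 array in each of 2 probe sets. M86912exon_at was at 146.7 in the exercise array, against 44.6, 43.8 and 38.4 in the others. M86912exon_g_at, too dim to be tested, was at 16.1 in 1 of the arrays deposited under both labels, against 63.3, 62.8 and 71.9. The outlying array was not the same in both, and chance alone marks about 1 in 20 such groups.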

How the results depend on the processing

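Of the differences of the 8 member probe sets and L36664_s_at refitted under each alternative, 1704 kept their sign and side of the threshold, 24 passed only in the alternative, 15 passed only in the original and 153 that passed in neither changed sign; no called member changed sign. Counts of member probe sets called moved as follows. At 15 weeks high salt against control (0) became 1 with array weights and 1 with the GAPDH covariate. High salt against control at 6 weeks (1) became 2 with a stricter filter, with array weights and with the identical columns read as control, as exercise or all as deposited, and 0 with the GAPDH covariate, with only the compared groups and with the 15-week and 3-week arrays as controls; leaving out 1 array gave 0 to 2. Exercise against control (0) became 1 with quantile normalization, 3 with array weights and 2 with all columns as deposited, and 0 to 2 without 1 array. High salt against non-salt at 3 weeks (0) became 1 with array weights. High salt at 15 against 6 weeks (1) became 0 with only the compared groups, and 0 to 1 without 1 array. The salt effect of 15 minus 6 weeks (1) became 0 with the GAPDH covariate or only the compared groups, and 0 to 1 without 1 array. That of 15 minus 3 weeks (0) became 1 with a stricter filter, array weights, the GAPDH covariate, only the compared groups, all columns as deposited and a fit without the 6-week controls, the last chosen after seeing the data, and 0 to 1 without 1 array.

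With the GAPDH covariate Nos3 changed sign, to 0.094 for high salt and 0.44 for exercise at 6 weeks. All calls on the array ranged from 15 to 1792 around 942 for high salt and from 0 to 1731 around 513 for exercise at 6 weeks, from 220 to 1038 around 472 at 15 weeks, from 0 to 145 around 10 for high salt at 3 weeks, from 113 to 474 around 209 for high salt at 15 against 6 weeks, from 34 to 688 around 105 and from 99 to 498 around 157 for the differences between salt effects. Counts of 1 ranged from 0 to 7 for high salt against exercise and from 1 to 50 for controls over time, and high salt at 6 against 3 weeks from 2 to 10 around 5. With the replicate block the member counts stayed at 0, 1 and 0 for high salt at 15 weeks, high salt at 6 weeks and exercise, and the total for high salt at 6 weeks was 889. Arrays that share only a number had deviations correlated at a median of -0.03 (45 pairs, -0.27 to 0.24), so the numbers were not taken as pairs. Signal over background was not assessed, and Agtr2 and dim Agtr1a probe sets allow no comparison.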
